A study of Mus musculus with 6 samples.

Results

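The genes described here encode the nuclear-encoded parts of oxidative phosphorylation, the mitochondrial pathway that turns the oxidation of nutrients into ATP. They were chosen by name from the deposited table of messenger RNA levels: rows whose gene name begins with Nduf followed by a, b, c, s or v and a digit, with Uqcr, with Atp5 or with Cox followed by a digit from 4 to 8, and rows named Cyc1 or Sdha to Sdhd. This gave 86 of 21307 rows. The row Cox4nb was caught by the name pattern alone, since it is an older name of Emc8, a subunit of a membrane protein complex of the endoplasmic reticulum, and it was set aside (10.9 FPKM after ethanol and 9.35 FPKM after 4-OHT). Of the 85 genes left, 3 were listed at 0 in both conditions and 82 were compared.

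RNA was sequenced from B cells of the bone marrow of pretumoral mice, 6 to 8 weeks old, on a C57BL/6 x 129S1/SvlmJ background. All cells carried the genotype E-mu-myc;Prmt5F/FCreER: a MYC transgene under the immunoglobulin heavy chain enhancer, which drives it in B cells, loxP-flanked alleles of the arginine methyltransferase gene Prmt5, and a Cre recombinase that 4-hydroxytamoxifen (4-OHT) activates. The 3 libraries called 4-OHT came from cells given 50 nM 4-OHT for 24 h, and the 3 libraries called ethanol from cells given ethanol, with 5 further days of culture for both and interleukin 7 at 5 ng/µl. The titles of the libraries and the design text speak instead of wild-type and pre-tumoral mice, and both readings divide the 6 libraries alike. No group had 4-OHT without floxed Prmt5, so the drug, Cre activity and loss of Prmt5 cannot be told apart.

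The table gives 1 value per gene and condition, in FPKM (sequenced fragments of a gene corrected for its transcript length and for library size), so no difference has a replicate check and none was tested. Read depth is unknown. The ratio below is log2 of (4-OHT FPKM + 1) over (ethanol FPKM + 1), negative where 4-OHT was lower, and genes were compared when both values were above 0 and their mean was at least 1 FPKM, which 10856 rows met. FPKM is scaled to transcript length, so levels of different genes are set side by side below, as a rough guide only. How reads shared with processed pseudogenes were assigned is not stated. Prmt5 stood at 41.6 FPKM after ethanol and 5.71 FPKM after 4-OHT, and Myc at 402 and 213 FPKM. Cell type markers moved as well: 8 of 8 B cell markers were lower in 4-OHT (summed FPKM of 1322 and 558). Higher in 4-OHT were 6 of 6 compared neutrophil markers (315 and 3015), 6 of 6 compared macrophage markers (604 and 1337) and 5 of 5 stromal markers (26.1 and 441). The macrophage sums leave out Lyz2, which is listed at 3835 FPKM in ethanol and 0 in 4-OHT. With Lyz2 they would be 4439 and 1337, the other direction, and its 0 can also be a failed estimate. In bulk RNA, fewer cells of a type and less RNA per cell cannot be told apart, and the part of cell makeup in the values below was not tested.

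Electrons enter the respiratory chain at complex I (NADH dehydrogenase) or complex II (succinate dehydrogenase), pass through ubiquinone to complex III (the cytochrome bc complex) and through cytochrome c to complex IV (cytochrome c oxidase), where oxygen is reduced. Complexes I, III and IV pump protons across the inner membrane, and complex V, the ATP synthase, uses their return to make ATP. The subunits of each complex are needed in fixed proportion, and growing lymphocytes raise mitochondrial activity as they enter the cell cycle. Subunits encoded by the mitochondrial genome were not analysed here.

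Most subunit genes were slightly lower in 4-OHT, and they lay close together. Of the 82 genes, 72 were lower and 10 were higher (67 to 74 lower when the conditions were scaled to each other in 3 other ways), while 55.1% of all compared genes were lower and 44.9% were higher. At least 20% lower on this scale were 35 of 82 genes (42.7%), against 29.9% of all compared genes, and 1 gene was at least 25% higher, against 27.7%. The share at least 20% lower depended on the scaling: it was 19 of 82 (23.2%, against 24.5% of all compared genes) after median-of-ratios scaling, 33 (40.2%, against 33.1%) after quantile normalization and 43 (52.4%, against 34.7%) after scaling to an equal FPKM sum. No gene was at least 2-fold lower (2.58% of all) and 1, Ndufa4l2, was at least 2-fold higher (10.4% of all). The median ratio was -0.28, or 1.22-fold lower, beside -0.07 for all compared genes. The middle 50% of the ratios spanned 0.24 for these genes and 0.79 for all.

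These genes are abundant, and abundant genes in general had lower ratios. Of the 559 rows that averaged 100 FPKM or more, 335 were lower (59.9%), with a median ratio of -0.19. The 48 oxidative phosphorylation genes among them had 43 lower (89.6%) and a median of -0.30, and 43.8% of them were at least 20% lower, near the 40.4% of all rows at this level. Between 20 and 100 FPKM the medians were -0.14 for all 3004 rows and -0.24 for the 27 genes of this pathway, of which 24 were lower; at least 20% lower were 48.1% of these genes and 34.4% of those rows. The spread differed more than the centre: at 100 FPKM or more the middle 50% of ratios spanned 0.98 for all rows and 0.22 for the pathway. The summed FPKM of the pathway was 4.11% of the total of the table in ethanol and 3.25% in 4-OHT.

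**Figure D1:**
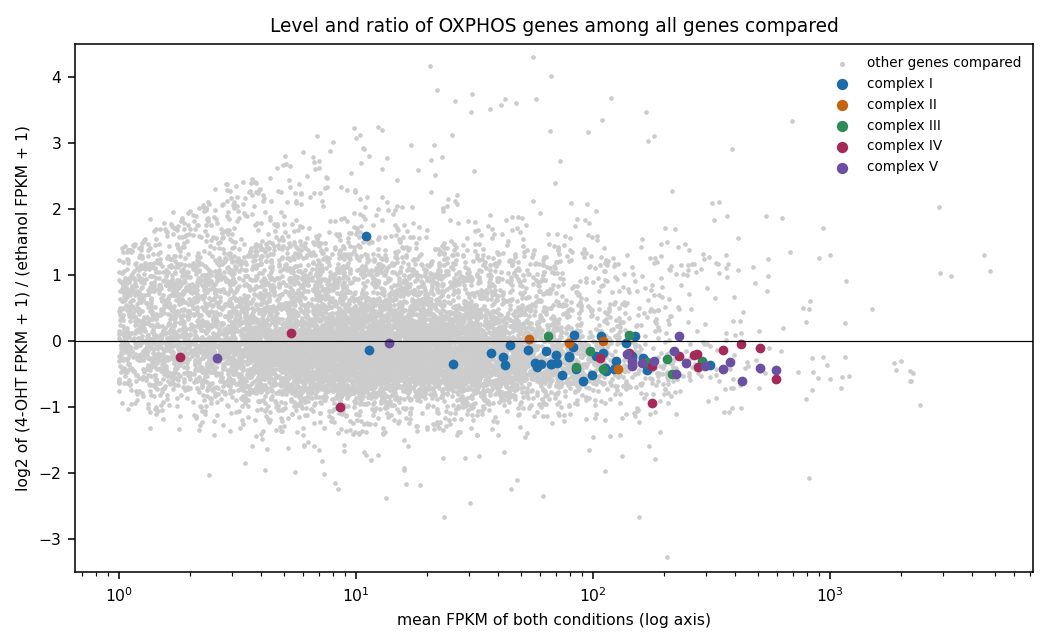
Mean FPKM of both conditions (x, log axis) against the log2 ratio of 4-OHT over ethanol (y, pseudocount 1) for all 10856 compared genes (grey) and for the 82 oxidative phosphorylation genes, coloured by complex. The pathway forms a narrow band just below 0 at high FPKM, with Ndufa4l2 (1.59), Cox7a1 and Cox6a2 outside it.

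The 7 core subunits of complex I that nuclear genes encode carry the flavin, the iron-sulfur clusters and the ubiquinone site of its peripheral arm. All 7 were lower in 4-OHT (median -0.24), against 55.1% of all compared genes. At least 20% lower were 3 of the 7 (42.9%), against 29.9% of all compared genes and 34.4% of rows between 20 and 100 FPKM. Ndufs3, a core subunit near the ubiquinone site, stood at 109.7 FPKM after ethanol and 72.0 FPKM after 4-OHT (ratio -0.60), the lowest ratio of the subunits of the common form. Ndufv1, the flavin-binding subunit that takes electrons from NADH, was at 48.3 and 37.5 FPKM (-0.36). Ndufv2, its iron-sulfur partner, was at 45.3 and 38.2 FPKM (-0.24). Ndufs1, the largest core subunit, had the lowest level of the group, at 39.7 and 34.9 FPKM (-0.18). Of the iron-sulfur subunits near the ubiquinone site, Ndufs7 was at 75.3 and 65.1 FPKM (-0.21) and Ndufs8 at 67.8 and 53.2 FPKM (-0.34).

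The accessory subunits surround this core and stabilise it. Of 28 measured, 25 were lower (89.3%, against 55.1% of all compared genes) and 3 higher, with a median of -0.28. Ndufa5 and Ndufb8 were above 0 under median-of-ratios scaling. At least 20% lower were 13 (46.4%), against 29.9% of all compared genes. Of abundant rows it was 34.4% between 20 and 100 FPKM and 40.4% at 100 FPKM or more. Counts of genes at least 20% lower were not taken per complex or list under the other scalings. The most abundant by the mean of both conditions were Ndufs5 (194 and 144 FPKM, ratio -0.43), Ndufa2 (178 and 149 FPKM, -0.25) and Ndufa3. The lowest ratios were those of Ndufc1, at 88.0 and 61.3 FPKM (-0.52), and Ndufs6, a zinc-binding subunit, at 117 and 82.0 FPKM (-0.51). The 3 that were higher differed by little: Ndufv3 was at 81.0 and 86.1 FPKM, Ndufa1 at 105 and 112 FPKM, and Ndufa3 at 147 and 156 FPKM, with ratios of 0.09, 0.09 and 0.08. Ndufb8 was level, at 139.5 and 137 FPKM (-0.03). Ndufa11 was the least abundant subunit, at 12.0 and 10.8 FPKM, 16.2-fold below Ndufs5 in ethanol. Ndufab1, the acyl carrier protein of complex I, whose name falls outside the pattern, was at 72.3 and 52.2 FPKM (-0.46).

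**Figure D2:**
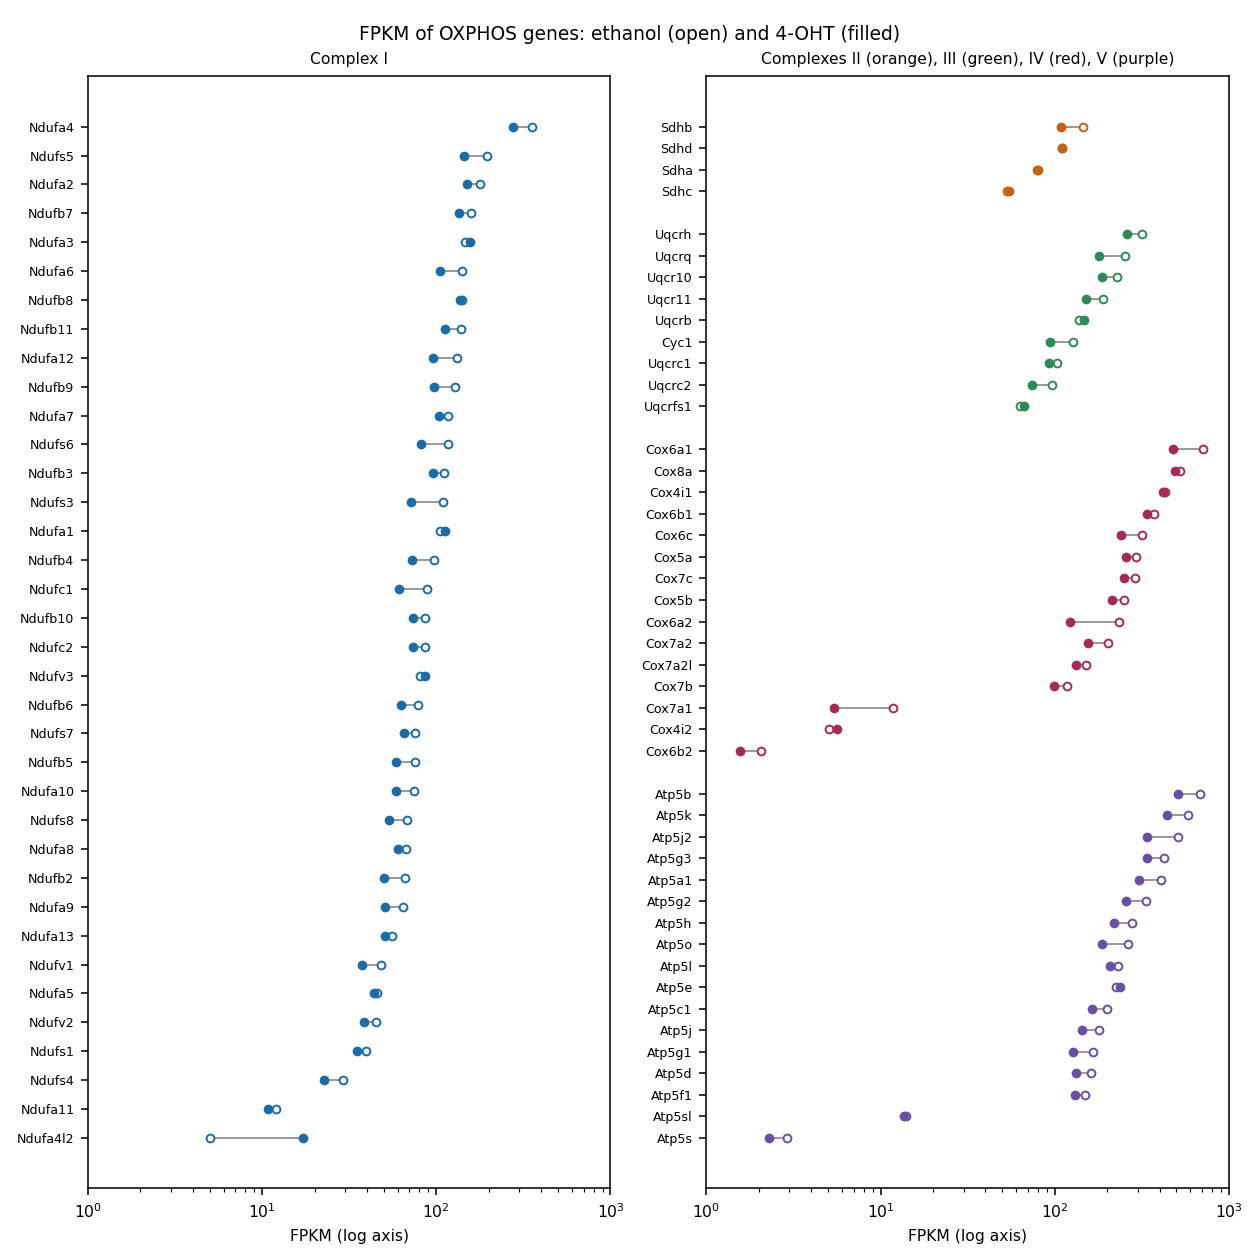
FPKM on a log axis for the compared genes (1 of the 82 is not drawn), by complex and ordered by the ethanol value, with ethanol as open and 4-OHT as filled circles, 1 pooled value each. Filled circles lie slightly to the left of open ones for most genes, and the order by level is nearly kept.

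Complex II, which also serves the citric acid cycle as succinate dehydrogenase, had a median ratio near 0 (-0.005). Sdhb, the iron-sulfur subunit, stood at 146 FPKM after ethanol and 109 FPKM after 4-OHT (ratio -0.42). The other 3 genes were level: the flavoprotein gene Sdha at 80.4 and 79.3 FPKM (-0.02), and the membrane anchor genes Sdhc at 53.3 and 54.9 FPKM (0.04) and Sdhd at 109.9 and 111 FPKM (0.01). The signs of Sdha, Sdhc and Sdhd depend on how the conditions are scaled to each other: Sdha was above 0 under median-of-ratios scaling or quantile normalization, and Sdhc and Sdhd were below 0 when both conditions were scaled to an equal sum. With 4 genes, the median of complex II rests on few values.

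In complex III, 7 of 9 genes were lower (77.8%, against 55.1% of all compared genes) and 2 higher (median -0.30). Cyc1 encodes cytochrome c1, the haem protein that hands electrons to cytochrome c, and stood at 127 and 94.6 FPKM (ratio -0.43). Uqcrfs1, the Rieske iron-sulfur protein that feeds it, was level, at 63.2 and 67.0 FPKM (0.08). The 2 catalytic subunits that the nucleus encodes thus differed by 0.51. Uqcrc1 and Uqcrc2, the large core proteins, were at 103 and 92.9 FPKM (-0.15) and at 97.0 and 74.0 FPKM (-0.39). The small subunits were the most abundant: the hinge protein gene Uqcrh was at 318 and 259 FPKM (-0.30) and Uqcrq at 254 and 180.3 FPKM (-0.49, the lowest ratio of the complex). Uqcr10 was at 227 and 187 FPKM (-0.28) and Uqcr11 at 188 and 151 FPKM (-0.31). Uqcrb had the highest ratio, at 137 and 147 FPKM (0.10). Uqcrb was also the gene of median level in both conditions, so the median level of complex III was higher in 4-OHT (137 and 147 FPKM) although its median ratio was below 0.

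All 10 genes of complex IV subunits of the common form were lower (median -0.22), against 55.1% of all compared genes. Cox4i1, however, was above 0 under median-of-ratios scaling. Of the 10, 3 were lower by at least 20%, close to the share of all compared genes (29.9%). Cox6a1, a regulatory subunit, had the highest ethanol value of the pathway and the lowest ratio of the 10, at 712 and 478 FPKM (ratio -0.57). Cox8a and Cox4i1, the next most abundant, were nearly level, at 527 and 491 FPKM (-0.10) and at 428 and 416 FPKM (-0.04). COX4 takes part in the inhibition of the enzyme by ATP. Cox6b1, which joins the monomers of the dimer, was at 372 and 341 FPKM (-0.13). Cox6c, at 316 and 242 FPKM (-0.39), and Cox7a2, at 202 and 155 FPKM (-0.38), were lower than most. The remaining genes, Cox5a, Cox5b, Cox7b and Cox7c, had ratios from -0.25 for Cox7b to -0.19 for Cox5a. Cox7a2l, whose product ties complex III to complex IV in supercomplexes, was at 152 and 133 FPKM (-0.18). Ndufa4 carries a complex I name, but its product is now counted as a subunit of complex IV. Ndufa4 was at 353 and 275 FPKM (-0.36). In ethanol the 10 complex IV genes had a median of 305 FPKM (117 to 712 FPKM). The 28 accessory genes of complex I had a median of 92.7 FPKM (12.0 to 194 FPKM). Levels ranged widely within each group, and a level does not show which complex a product belongs to.

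Complex V had the lowest median, -0.33 over 17 genes grouped by name, which include Atp5s and Atp5sl, not subunits of the enzyme's core structure. Of the 17, 16 were lower (94.1%, against 55.1% of all compared genes), or 15 under median-of-ratios scaling, where Atp5sl was above 0. At least 20% lower were 9 (52.9%), against 29.9% of all compared genes and 40.4% of rows that averaged 100 FPKM or more. In the catalytic F1 head, Atp5b (the beta subunit, 684 and 507 FPKM, ratio -0.43) and Atp5a1 (the alpha subunit, 406 and 304 FPKM, -0.42) were lower by almost the same factor. The gamma and delta subunits of the central stalk did likewise, Atp5c1 at 200.2 and 163 FPKM and Atp5d at 162 and 132 FPKM (both -0.29). Atp5e, the small epsilon subunit bound to them, was the exception, at 225 and 238 FPKM (0.08). The peripheral stalk keeps the head from turning with the rotor, and its 4 genes were all lower. Atp5o, which joins the stalk to the head, was lowest, at 264 and 186 FPKM (-0.50). Atp5h was at 276 and 220.3 FPKM (-0.33), Atp5j at 179.9 and 143 FPKM (-0.33), and Atp5f1 at 149 and 131 FPKM (-0.19).

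The c ring, the rotor in the membrane, is made of many copies of a subunit that 3 genes encode. The mature protein of these genes is the same, and they differ in the import signal. Atp5g3 was at 422 and 340.1 FPKM (ratio -0.31), Atp5g2 at 336 and 258 FPKM (-0.38) and Atp5g1 at 167 and 128 FPKM (-0.38). Their shares of the summed FPKM hardly differed between conditions: Atp5g3 had 45.6% in ethanol and 46.8% in 4-OHT, Atp5g2 36.4% and 35.5%, and Atp5g1 18.01% and 17.6%. Of the small membrane subunits, Atp5j2 was at 514 and 339 FPKM (-0.60), the lowest ratio of the complex, Atp5k at 581 and 440.1 FPKM (-0.40) and Atp5l at 231 and 208 FPKM (-0.15). Atp5s and Atp5sl carry ATP synthase names without being subunits of the enzyme's core structure. Both were scarce, at 2.90 and 2.28 FPKM (-0.25) and at 14.0 and 13.7 FPKM (-0.03).

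**Figure D3:**
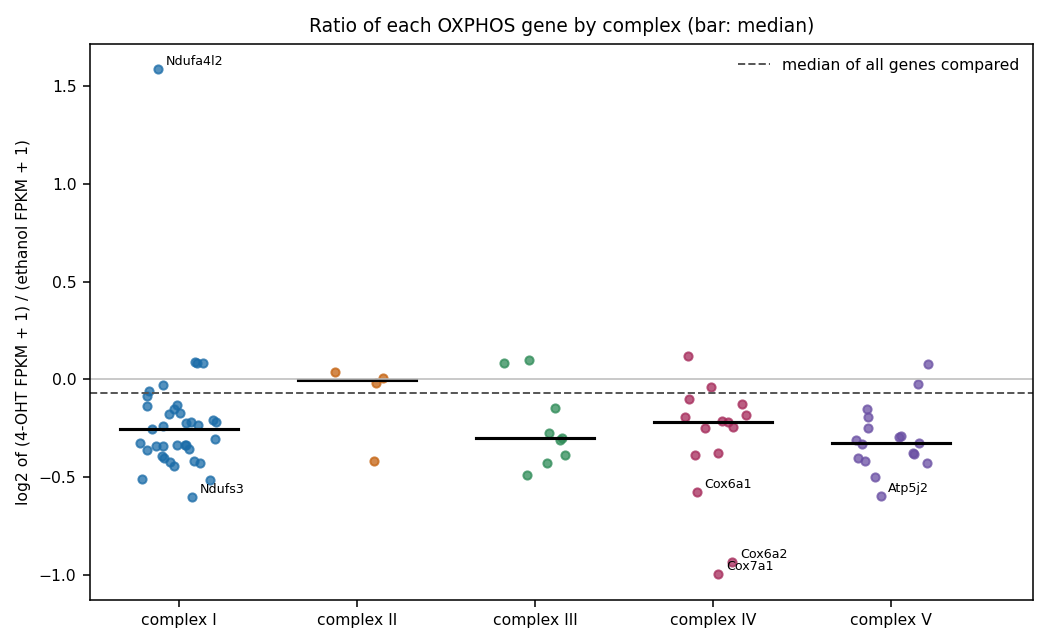
Log2 ratio of 4-OHT over ethanol (pseudocount 1) of each compared gene by complex, grouped by name prefix, so that Ndufa4 and Ndufa4l2 stand in complex I. Black bars are medians (-0.25, -0.005, -0.30, -0.22 and -0.33 for complexes I to V) and the dashed line is the median of all compared genes, -0.07.

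Several complex IV subunits exist as tissue isoforms, and 2 of these had the lowest ratios of the pathway. Cox6a2, an isoform of heart and skeletal muscle, stood at 235 FPKM after ethanol and 123 FPKM after 4-OHT, 1.91-fold lower (ratio -0.93). It made up 24.8% of the summed Cox6a1 and Cox6a2 values in ethanol and 20.4% in 4-OHT. Its row spans 32421 bases (mm9, chr7:135317460-135349880), an interval it shares with the integrin gene Itgad, which had 2.24 and 1.17 FPKM. Where genes overlap, their reads cannot be told apart unless the counting used strand, which is not stated. Cox7a1, also an isoform of heart and skeletal muscle, was at 11.8 and 5.40 FPKM (ratio -0.998), the lowest ratio of the 82 and just short of the 2-fold limit. The authors' deposited table, which uses no pseudocount, lists a log2 fold change of -1.13 for Cox7a1. Its share of Cox7a2 and Cox7a1 together was 5.51% in ethanol and 3.36% in 4-OHT. Of 8 markers of striated muscle, 2 were at 0 in both conditions and all 8 together summed to 6.25 and 5.21 FPKM. The muscle creatine kinase gene Ckm was at 0.0468 and 0.0833 FPKM. Only 2 of the 8 were compared, and they differed in opposite directions. Tnni2 was at 3.57 and 3.91 FPKM (ratio 0.10) and Tnnt2 at 1.85 and 0.489 FPKM (-0.94). The part of muscle cells in the isoform values was not tested.

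The other isoforms were scarce. Cox4i2, the isoform of lung and of cells low in oxygen, was at 5.09 and 5.63 FPKM (ratio 0.12), 1.17% and 1.33% of the COX4 sum. Cox6b2, the testis isoform, was at 2.05 and 1.57 FPKM (-0.25). Cox7b2, Cox8b and Cox8c were listed at 0 in both conditions, next to Cox7b at 117 and 98.6 FPKM and Cox8a. In this table a 0 can also be a failed estimate.

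Ndufa4l2 was the only gene of the pathway that was at least 2-fold higher in 4-OHT. It encodes a relative of NDUFA4 that cells induce at low oxygen and that lowers the activity of the chain. Its value was 5.02 FPKM after ethanol and 17.1 FPKM after 4-OHT, 3.01-fold higher (ratio 1.59), and the authors' deposited table lists 1.77. Its share of the Ndufa4 and Ndufa4l2 sum was 1.40% in ethanol and 5.86% in 4-OHT. The row shares its interval (mm9, chr10:126951995-126959491) with Shmt2, a serine hydroxymethyltransferase gene of mitochondria, which differed in the other direction, at 277 and 106 FPKM. Ndufa4l2 is also expressed in cells around small vessels, and the stromal marker Pdgfrb, a receptor of such cells, was at 0.730 and 9.88 FPKM. The part of such cells in the value was not tested.

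**Figure D4:**
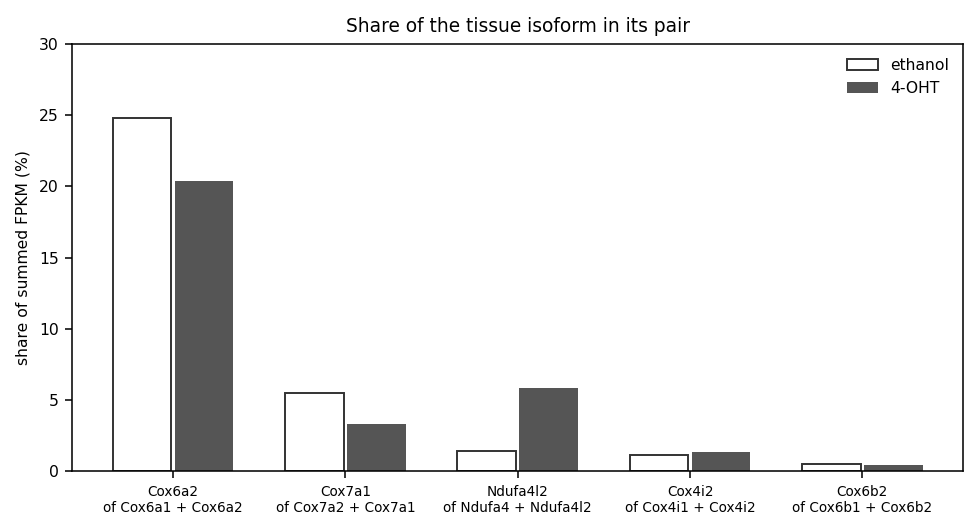
Share of a tissue isoform in the summed FPKM of its pair, in percent, in ethanol (open bars) and 4-OHT (filled bars), 1 pooled value each and the axis from 0. The share of Cox6a2 was 24.8% and 20.4%, that of Cox7a1 5.51% and 3.36%, and that of Ndufa4l2 1.40% and 5.86%.

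Since most subunit genes were lower together, their promoters were searched on both strands for the sites of 4 factors known for such genes or for MYC. The windows run from 250 bases before to 50 bases after the start site in RefSeq (GRCm38), and 69 of the 85 genes had at least 1 such window in the table used, 3 of them under another name. NRF1, the nuclear respiratory factor, binds a palindrome of 10 bases (in capitals in the stretches given below), which was found in 5 of the 69 genes (7.25%), against 1.07% of the 27025 genes of the promoter table. The YY1 site AAGATGGCG was found in 8 genes (11.6%, against 1.64%), at 8 distinct sites, and 7 of these began 23 to 36 bases after a start site. The site in Atp5sl is one of the 7 and also lies before another annotated start of that gene. The ETS site CCGGAAGT, which GABPA binds, was found in 5 genes (7.25%, against 4.31%). The E-box CACGTG, which MYC and MAX bind, was found in 7 genes (10.1%, against 8.09%): Atp5f1, Atp5g1, Atp5g3, Atp5l, Atp5sl, Ndufa7 and Ndufv1. None of the 4 motifs contains another. Compared genes with the E-box had a median ratio of -0.19 (7 genes) and those without it -0.29 (60 genes). For the NRF1 site the medians were -0.38 (5 genes) and -0.28 (62 genes), for the YY1 site -0.34 (8 genes) and -0.25 (59 genes), and for the ETS site -0.31 (5 genes) and -0.26 (62 genes). A match describes these letters in this window, and binding was not measured.

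The stretches around the NRF1 site are shown for the 4 genes that hold it before the start site, since it was the rarest of the 4 motifs among all genes (capitals mark the site, 5′ to 3′ on the strand of the gene, GRCm38). They come from the minus strand at chr15:102671060-102671109 (Atp5g2), chr5:108434420-108434469 (Atp5k) and chr5:115349091-115349140 (Cox6a1) and from the plus strand at chr17:56717682-56717731 (Ndufa11). The site began 42, 50, 162 and 60 bases before the start, respectively.
Atp5g2: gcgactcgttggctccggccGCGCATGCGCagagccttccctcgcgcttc
Atp5k: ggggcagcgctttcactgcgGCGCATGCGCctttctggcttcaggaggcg
Cox6a1: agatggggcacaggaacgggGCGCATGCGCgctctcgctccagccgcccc
Ndufa11: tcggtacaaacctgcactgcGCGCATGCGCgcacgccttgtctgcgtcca
The ratios of these genes were -0.38, -0.40, -0.57 and -0.14, so the same 10 letters stood before genes with ratios on both sides of the pathway's median.

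The E-box is shown for 3 of its 7 genes, one with a low ratio in each of complexes V and I and one closer to 0, because Myc itself was lower in 4-OHT. The stretches lie at chr11:96075650-96075695 (Atp5g1, minus strand), chr19:4012899-4012944 (Ndufv1, minus strand) and chr17:33824480-33824525 (Ndufa7, plus strand).
Atp5g1: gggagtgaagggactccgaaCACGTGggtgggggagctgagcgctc
Ndufv1: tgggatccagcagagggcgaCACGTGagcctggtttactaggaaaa
Ndufa7: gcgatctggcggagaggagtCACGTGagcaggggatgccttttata
Their ratios were -0.38, -0.36 and -0.17. The E-box genes not shown had ratios of -0.19 (Atp5f1), -0.31 (Atp5g3), -0.15 (Atp5l) and -0.03 (Atp5sl). The median of the 7 was -0.19, against -0.29 for compared genes without the E-box, and a link to Myc was not tested.

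Assembly factors build the complexes without remaining in them, and most of their genes were also lower. Of 47 listed factors 45 were matched and compared, with 38 lower (36 to 39 under the other scalings), 7 higher and a median ratio of -0.28. The share lower was 84.4%, against 55.1% of all compared genes. They were scarcer, with a median of 10.1 FPKM in ethanol against 129.6 FPKM for the subunits. For complex I, 11 of 13 were lower (median -0.39): Ecsit, which also serves innate immune signalling, was the most abundant and lowest, at 21.6 and 12.8 FPKM (-0.72), Ndufaf2 was at 15.7 and 13.2 FPKM (-0.23), and Tmem126b was highest, at 8.72 and 11.0 FPKM (0.30). The 4 factors of complex II were lower (median -0.36), although Sdhaf4 was above 0 under median-of-ratios scaling. The lowest was Sdhaf3, listed as Acn9 (9.57 and 6.24 FPKM, -0.55). The most abundant were Sdhaf4, listed as 1110058L19Rik, at 12.9 and 12.5 FPKM (-0.04), and Sdhaf2, at 13.2 and 10.7 FPKM (-0.28). For complex III, 5 of 6 were lower (median -0.30), or 4 of 6 under median-of-ratios scaling or quantile normalization. Lyrm7, which stabilises the Rieske protein before its insertion, was at 2.26 and 0.592 FPKM. Its log2 ratio was -1.03 with the pseudocount of 1 and -1.77 with 0.1, so its size rests on the pseudocount. Uqcc2, listed as 2900010M23Rik, was the most abundant, at 80.7 and 64.1 FPKM (-0.33). Uqcc3, listed as AI462493, was level at 25.04 and 24.5 FPKM, and Uqcc1, listed as Uqcc, had the highest ratio (0.15).

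For complex IV, 15 of 19 compared factors were lower (78.9%, against 55.1% of all compared genes) and 4 higher (median -0.20). Of the 4, Coa3 was below 0 at equal sums. Of the 19, 6 were at least 20% lower (31.6%), close to the share of all compared genes (29.9%). Cox17, the copper chaperone that supplies the enzyme, was by far the most abundant and had the lowest ratio, at 196 and 127 FPKM (-0.63). Lrpprc, which stabilises mitochondrial messenger RNAs, had the next lowest ratio, at 32.2 and 20.6 FPKM (-0.62). Cox14, listed as 2310016M24Rik, was at 52.3 and 47.3 FPKM (-0.14). Cox20, listed as Fam36a, a chaperone of the COX2 subunit, was highest, at 13.2 and 18.6 FPKM (0.47). The 3 factors of complex V were lower: Atpaf1, which chaperones the beta subunit, was at 11.2 and 7.37 FPKM (-0.54), Tmem70 at 22.6 and 16.8 FPKM (-0.41), and Atpaf2 at 15.9 and 12.5 FPKM (-0.33). Atpif1, the inhibitor that stops the ATP synthase from running backwards, differed in the other direction from the enzyme, at 159 FPKM after ethanol and 219.8 FPKM after 4-OHT (0.47).

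The genes tied to the mobile carriers between the complexes, cytochrome c and ubiquinone, had ratios on both sides of 0. Ubiquinone is not a gene product, so its genes are those of its synthesis and use. Cycs, the gene of cytochrome c, was at 33.7 and 27.8 FPKM (ratio -0.27), and its testis form Cyct was listed at 0 in both conditions. Of the 12 genes of ubiquinone synthesis and use compared, Coq2, the enzyme that joins the ring to its tail, stood at 39.3 and 14.1 FPKM, 2.66-fold lower (-1.41 with the pseudocount of 1 and -1.47 with 0.1). Coq7, a hydroxylase of the same pathway, was at 48.3 and 24.5 FPKM (-0.95). Coq10b, which helps ubiquinone to work in respiration, was higher, at 3.47 and 7.57 FPKM (0.94). The list of 13 compared genes had 9 lower (69.2%, against 55.1% of all compared genes) and 4 higher, with a median of -0.29. Under quantile normalization 10 were lower.

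The citric acid cycle supplies the NADH and succinate that the chain oxidises. Of its 14 genes, 12 were lower (85.7%, against 55.1% of all compared genes), and 13 at equal sums, with Cs. At least 20% lower were 8 (57.1%), against 29.9% of all compared genes and 34.4% of rows between 20 and 100 FPKM. The median ratio was -0.43. Mdh2, the malate dehydrogenase gene, was the most abundant, at 338 and 234 FPKM (-0.53). Idh2, the NADP-linked isocitrate dehydrogenase gene, had the lowest ratio, at 88.7 and 50.6 FPKM (-0.80). Ogdh, which belongs to the oxoglutarate dehydrogenase complex, was level, at 26.3 and 27.3 FPKM (0.05).

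The list of mitochondrial biogenesis regulators also holds genes that copy, maintain or transcribe mitochondrial DNA. Of its 14 compared genes, 12 were lower (85.7%, against 55.1% of all compared genes), or 11 under median-of-ratios scaling. The median ratio of the list was -0.33. Yy1 was the most abundant, at 46.1 and 36.0 FPKM (-0.35), followed by Ssbp1, which coats single-stranded mitochondrial DNA, at 33.4 and 20.7 FPKM (-0.67). Twnk, the helicase of mitochondrial DNA, listed as Peo1, had the lowest ratio, at 15.97 and 7.94 FPKM (-0.92). Tfam, which packs mitochondrial DNA and starts its transcription, was at 15.1 and 9.69 FPKM (-0.59), and Nrf1 at 16.1 and 10.8 FPKM (-0.54). Esrra, a nuclear receptor that activates respiratory genes, was highest, at 11.4 and 14.0 FPKM (0.27). Its coactivator gene Ppargc1a was near 0 in both conditions (0.00727 and 0.0317 FPKM), whereas the related Pprc1 was at 23.1 and 17.4 FPKM (-0.38).

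**Figure D5:**
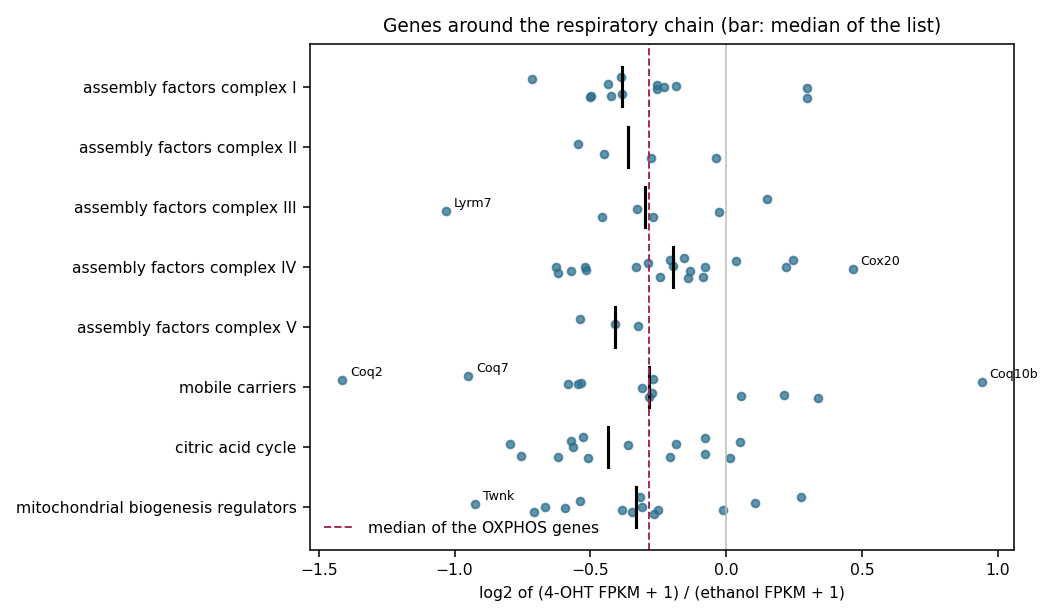
Log2 ratio of 4-OHT over ethanol (x, pseudocount 1) for each compared gene of 8 lists around the respiratory chain (y), with black bars at the list medians and a dashed line at the median of the oxidative phosphorylation genes, -0.28. Coq2 (-1.41) and Lyrm7 (-1.03) lie farthest to the left and Coq10b (0.94) farthest to the right.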

How the data were processed

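Libraries were made with the TruSeq RNA kit and sequenced as paired ends, per the labels' protocols. The submitters' processing notes name CASAVA, TopHat2 2.0.9, Cufflinks 2.1.1 and genome build mm9. The deposited table holds FPKM values made by the authors, 1 per gene and condition. How the 3 libraries were combined is not stated there. The authors' deposited log2 fold changes equal log2 of the 4-OHT over the ethanol value in all 15756 rows above 0 in both (within 0.01).

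Ratios used a pseudocount of 1 and a minimum mean of 1 FPKM. They understate the change of scarce genes. No test was run, because each condition has 1 value, and the planned limma fit could not be made. A planned comparison of isoform proteins was not analysed here. The calculation of the ratio was tried on simulated data with large differences built in. That checks the arithmetic and cannot show how reliable the small differences described here are. Table starts were raised by 1: locus lengths then equalled RefSeq lengths in 6341 rows, against 437 otherwise. Many subunit genes have processed pseudogenes, and how reads shared with them were assigned is not stated. Members, gene lists and alternatives were chosen with earlier results of these data known. Named genes were, per list, the most abundant, the extremes of the ratio, all isoforms and those with a 0 or 2-fold difference. The others were chosen after their values were seen. Scripts ran under Python 3.11.15 with pandas 2.3.3, numpy 2.4.6 and, for figures, matplotlib 3.10.9. Values of 2 genes of these lists are not reported here.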

Additional observations from a re-analysis of the deposited data

How the results depend on the processing

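The median ratio of the pathway ran from -0.34 to -0.21 over the alternatives tried (pseudocounts of 0.1 and 0.5, the authors' deposited fold changes, a minimum of 5 FPKM, no filter, 3 scalings, Ndufa4 in complex IV, no merged rows, and, added after the data were seen, Cox4nb kept, isoforms and associated genes left out, or rows that share an interval left out). Complex II lay on both sides of 0, from -0.045 with equal sums to 0.071 with median-of-ratios scaling. Median-of-ratios scaling left 19 genes at least 20% lower in place of 35, and 5 genes (Atp5sl, Cox4i1, Ndufa5, Ndufb8 and Sdha) were then above 0. With pseudocounts of 0.1 or 0.5, the authors' deposited fold changes, quantile normalization or equal sums, 2 genes in place of 1 were at least 2-fold different. Leaving out rows that share an interval removes Ndufa4l2, so 0 genes were at least 25% higher and 0 at least 2-fold different. With a minimum of 5 FPKM, fewer factors were compared and the complex III assembly median was -0.18. No other summary moved by 0.1 or more, or a count by over 1.5 times, and no gene past 2-fold changed direction. No paired analysis was possible because each condition has only 1 pooled column. For the same reason, leaving out each library and a replicate block were not run. Precision is unknown without counts.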

Other observations

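Of the 85 genes, 9 share their interval in the table with another gene, and their values side by side give a further view of the pathway's neighbours. Atp5j shares its interval with Gabpa, the ETS factor gene of respiratory promoters, and their ratios were -0.33 and -0.31. Ndufb11 shares one with Rbm10, a splicing regulator gene, with ratios of -0.30 and -0.23. Atp5f1 shares one with Wdr77, the cofactor gene of PRMT5, with ratios of -0.19 and -0.56. Cox6a2 and Itgad, named above, had ratios of -0.93 and -0.58. The pseudocount weighs on Itgad, which is scarce: without one, the authors' deposited log2 fold changes were -0.94 for Cox6a2 and -0.94 for Itgad. Ndufa4l2 and Shmt2 had ratios of 1.59 and -1.37.

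A grouping by cofactor, chosen after the values were seen, cut across the complexes. Of 7 iron-sulfur subunit genes (Ndufs1, Ndufs7, Ndufs8, Ndufv1, Ndufv2, Sdhb and Uqcrfs1), 6 were lower (85.7%), with a median ratio of -0.24. This was near the whole pathway, with 87.8% lower and a median of -0.28, so the grouping did not stand apart from it. Sdhb was lowest (-0.42) and Uqcrfs1 the one that was higher (0.08).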
